A study of Mus musculus with 24 samples.

Results

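The corticotropin-releasing hormone (CRH) and glucocorticoid feedback genes described here are Crhbp, Crhr1, Avpr1b, Nr3c1, Fkbp5 and Tsc22d3, 6 of the 35191 genes counted by RNA sequencing in mouse pituitary. They were chosen by name, with earlier results of these data known, and all 6 passed the filter on low counts. The 24 libraries fall into 8 groups of 3, formed by sex and genotype. Wild type libraries carry neither floxed Egr1 nor Cre, labelled wt (-), and Cre control libraries carry Cre without floxed Egr1, labelled wt (+). Egr1cKO control libraries carry floxed Egr1 without Cre, labelled FF (-), and Egr1cKO libraries, labelled FF (+), carry both and stand for a conditional knockout of the immediate early transcription factor Egr1. The Cre driver, the strain, the age, the floxed exon and whether animals were pooled are not given here in any label.

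CRH from the hypothalamus acts on corticotropes, the pituitary cells that make adrenocorticotropic hormone from the Pomc precursor, through the receptor Crhr1. Vasopressin acts on the same cells through Avpr1b. The secreted protein encoded by Crhbp binds CRH and keeps it from its receptor. Glucocorticoids released by the adrenal gland feed back through the glucocorticoid receptor Nr3c1, which lowers Pomc transcription. Fkbp5, a co-chaperone that lowers the hormone affinity of the receptor, and Tsc22d3, a leucine-zipper protein also called GILZ, are both induced by glucocorticoids and serve as readouts of receptor activity in many tissues.

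Each library held between 15486069 and 26255343 counts, and levels are given as CPM, counts scaled to library size. Where groups of libraries are said not to overlap, the share of all tested genes that also separate was not counted. Such statements therefore describe the levels only. Egr1 itself was counted in every group, with means from 18.3 ± 13.8 CPM (SD, n = 3) in female Egr1cKO controls to 214 ± 236 in female Cre controls; male Egr1cKO libraries held 134 ± 93.1 CPM against 38.9 ± 14.6 in their controls, and female Egr1cKO libraries 65.5 ± 84.4 against 18.3 ± 13.8. Without the floxed exon, such counts do not test the deletion, and groups are named as labelled. The mitochondrial share of counts separated females with Cre (5.52% to 10.4%, median 7.71%) from males with Cre (2.08% to 3.79%, median 2.98%), and females with Cre also had the lowest median number of genes detected at equal depth, 20175 against 24218 in males with Cre. Female wild type replicate 1 stood apart from the other wild type females, with a mitochondrial share of 10.1%, so several results that rest on it are given with and without it. The labels name endocrine cells of the pituitary: Gh, the growth hormone gene, was at no less than 41098 CPM in every library, while posterior lobe markers, which are not endocrine, summed to 46.4 to 227 CPM, and 3 of 4 of them were called higher in females, beside 21.7% of all tested genes called by sex in either direction. Cre carriage, meaning both Cre groups against both groups without Cre, went with higher levels of 5 of 6 corticotrope and melanotrope markers and lower levels of 4 of 4 lactotrope and somatotrope markers, beside 6.89% of all tested genes called with Cre in either direction. Also higher were 2 of 2 thyrotrope, 2 of 5 gonadotrope, 2 of 4 posterior lobe and 1 of 4 stem and folliculostellate markers. No leukocyte or endothelial marker was called. In bulk tissue, fewer cells of a type and less RNA per cell cannot be told apart. The floxed and unfloxed libraries also carry different number series in their titles, so floxed status and that series cannot be told apart.

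The RefSeq promoter table for GRCm38.p6 held 4 of the 6 genes. The stretches below are shown for the gene with the largest sex difference and for the pair of glucocorticoid-induced genes. They read 5′ to 3′ on the strand of the gene. Each begins 250 bases before a RefSeq start and ends at that start, or at the first annotated exon base before it. The Fkbp5 stretch lies inside the annotated span of that gene and runs past its start to complete the marked motif. Capitals mark GGTCA, the core of the oestrogen receptor motif, in Crhbp and Tsc22d3. They also mark TGTTCT, the reverse complement of the glucocorticoid receptor hexamer AGAACA, in Tsc22d3. In Fkbp5 they mark GCGGGGGCG, an EGR family motif that crosses the annotated start.
Crhbp, chr13:95444925-95445081, minus strand: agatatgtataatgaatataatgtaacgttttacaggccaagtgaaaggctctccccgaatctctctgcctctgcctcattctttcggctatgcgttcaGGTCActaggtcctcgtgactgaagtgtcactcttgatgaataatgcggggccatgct
Fkbp5, chr17:28486144-28486399, minus strand: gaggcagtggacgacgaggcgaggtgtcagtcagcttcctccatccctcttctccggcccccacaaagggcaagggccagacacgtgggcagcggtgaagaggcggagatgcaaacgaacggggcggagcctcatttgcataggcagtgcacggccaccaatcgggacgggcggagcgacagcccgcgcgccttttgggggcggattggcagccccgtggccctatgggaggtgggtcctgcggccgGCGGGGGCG
Tsc22d3, chrX:140600660-140600772, minus strand: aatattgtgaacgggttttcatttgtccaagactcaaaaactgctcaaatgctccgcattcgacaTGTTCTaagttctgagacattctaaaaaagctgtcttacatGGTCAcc
Both strands were searched in the whole windows of 250 bases before to 50 after each start. GGTCA occurs in 40.5% of all 32851 promoter windows, AGAACA in 19.0%, TGACG, the core of the cAMP response element, in 20.8%, and GCGGGGGCG in 2.91%. The GGTCA of Crhbp starts at position -151 from the RefSeq start, and a TGACG at -64 lies outside the printed stretch. Tsc22d3 had 3 windows, of which only window 2 is printed. It was the only one of them with AGAACA on either strand. Window 1 held a GGTCA at -15, and window 3 a TGACG at -224. In Fkbp5 the EGR motif starts at -3. None of the 4 genes held the full cAMP response element TGACGTCA, the EGR motif GCGTGGGCG or a spaced pair of either receptor core in these windows. The CRH binding protein gene spans chr13:95431371-95444924 and Fkbp5 chr17:28399094-28517527; Fkbp5 overlaps 4 other annotated genes, none of which shares exon bases with it.

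Crhbp was present in every female library and nearly absent from every male library. Wild type males held 3, 5 and 14 counts, or 0.185, 0.224 and 0.545 CPM, and wild type females 59.2, 105 and 106 CPM. Cre control males held 0, 1 and 1 counts, and Cre control females 110, 61.2 and 60.0 CPM. The female values of these genotypes lie above every male value, and a count of 0 allows up to 3 counts in that library. Egr1cKO control males held 2, 21 and 28 counts, or 0.112, 0.828 and 1.26 CPM, and Egr1cKO control females 64.4, 65.2 and 18.0 CPM. Egr1cKO males held 0, 1 and 0 counts, and Egr1cKO females 147, 166 and 104 CPM. The lowest female library, an Egr1cKO control at 18.0 CPM, was still above the highest male library, an Egr1cKO control at 1.26 CPM.

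**Figure D1:**
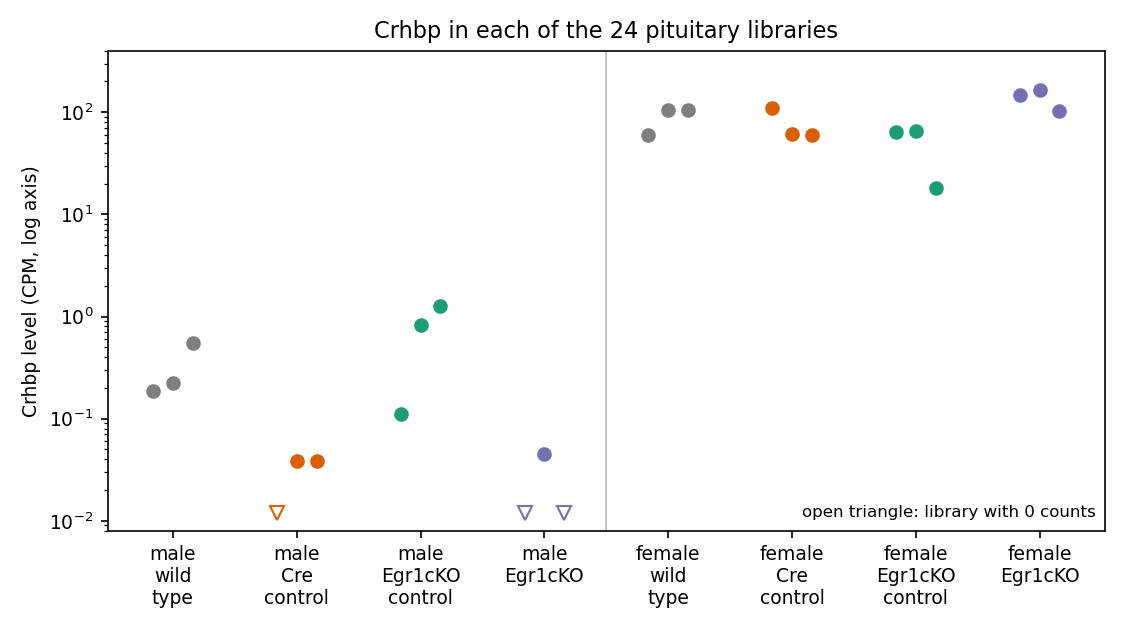
Crhbp in each of the 24 libraries, in CPM on a log axis, by group; open triangles stand for libraries with 0 counts, drawn at the foot of the axis. The 12 female libraries sit between 18.0 and 166 CPM and the 12 male libraries between 0 and 1.26 CPM, with the male libraries that carry Cre lowest.

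Because the male counts are so few, the sex difference is given as a ratio of summed counts with its exact 95% counting interval, which covers counting error only. It was 272 (180 to 435) in wild type, 2632 (728 to 21742) in Cre controls, 61.7 (46.8 to 83.1) in Egr1cKO controls and 9240 (1658 to 365020) in Egr1cKO, the last from 8692 female counts against 1 male count. Crhbp was called higher in females in each genotype and averaged over the 4 genotypes. The adjusted p was 1.28e-07 in wild type, where 0.283% of the 21927 tested genes were called, 2.62e-08 in Cre controls (3.61% called), 2.22e-06 in Egr1cKO controls (0.451% called) and 8.63e-09 in Egr1cKO (13.1% called). The averaged sex difference had an adjusted p of 1.13e-13 and the rank 5 by p, in a comparison in which 21.7% of tested genes were called. All p-values come from edgeR's quasi-likelihood test and are adjusted over all tested genes. The Crhbp call held in all 31 alternative settings of the averaged comparison, with a fitted log2 fold change between 9.36 and 9.93.

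Within males, the few Crhbp counts lay mostly in libraries without Cre. The 6 male libraries without Cre held 73 counts in all and the 6 with Cre held 3, a ratio of 26.1 (95% counting interval 8.60 to 130). No male library with Cre exceeded 1 count, and none without Cre was below 2, so these libraries did not overlap. Crhbp was called lower with Cre in males (adjusted p = 0.0156, 2.16% of genes called); without male wild type replicate 3, which held 14 counts, the adjusted p was 0.0717. Neither male pair was called by itself: the adjusted p was 0.363 for Cre controls against wild type (0.233% called), from 2 against 22 counts, and 0.177 for Egr1cKO against its control (0.0410% called), from 1 against 51 counts. With DESeq2 the latter reached an adjusted p of 0.00463.

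In females, Crhbp was not called with Cre in the reported fit, and the floxed and unfloxed pairs differed in sign. Females with Cre held 60.0 to 166 CPM (median 107, n = 6) and those without Cre 18.0 to 106 CPM (median 64.8, n = 6), a log2 difference of 0.63 ± 0.30 (SE; adjusted p = 0.185, 8.85% called). Female Cre controls, at 77.1 ± 28.5 CPM (SD, n = 3), overlapped wild type at 90.3 ± 26.9, with a log2 difference of -0.23 ± 0.42 (adjusted p = 0.850, 1.21% called). Female Egr1cKO libraries averaged 139 ± 31.7 CPM against 49.2 ± 27.0 in their controls, and the groups did not overlap. That log2 difference, 1.50 ± 0.42, missed the threshold (adjusted p = 0.0660, 2.21% called), but passed it with DESeq2 (0.0160), with only genes of at least 10 CPM on average (0.0390) and with the mitochondrial share as a covariate (0.0363). That covariate called 3081 of all tested genes, against 484 in the reported fit. Corticotrope and melanotrope markers summed to 51703 to 226970 CPM in females with Cre and 11959 to 40915 CPM without. Nearly all of each sum was Pomc, whose own ranges are given below. The part of these markers in the Crhbp values was not tested.

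The change of Crhbp with Cre carriage differed between the sexes by a log2 value of 4.92 ± 1.56 (SE; 95% interval 1.67 to 8.17; adjusted p = 0.0171), in a comparison that called 2.06% of genes. This fitted value depends on the small prior count added to near-empty male groups. The call was lost with the mitochondrial share (5.15, adjusted p = 0.0676) or the genes detected (5.05, 0.0961) as a covariate, where the log2 value was no smaller, and without male Egr1cKO replicate 1 (0.0508). Split by floxed status, the same difference was 3.13 ± 1.87 between Cre controls and wild type (adjusted p = 0.239, 0.128% called) and 6.71 ± 2.50 between Egr1cKO and its control (adjusted p = 0.0775, 0.0228% called); without male Egr1cKO control replicate 1 the latter had an adjusted p of 0.0237. Averaged over both sexes, Crhbp was the only one of the 6 genes called lower with Cre (log2 -1.83 ± 0.78, adjusted p = 0.0301, 6.89% of genes called). That call was lost in 9 of the 24 fits that left out 1 library, 8 of them male, and with either covariate, at log2 values of -1.73 with the mitochondrial share (adjusted p = 0.0534) and -1.80 with the genes detected (0.0517).

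Crhr1, the CRH receptor of corticotropes (chr11:104132855-104175523), was measured at similar levels in the sexes. Males held 19.4 to 45.4 CPM (median 30.6, n = 12) and females 13.1 to 39.0 CPM (median 25.2, n = 12), and the ranges overlapped over most of their length. The averaged sex difference was -0.23 on the log2 scale (95% interval -0.52 to 0.07, adjusted p = 0.271). This p fell to 0.0321 without female wild type replicate 1, the library with 39.0 CPM, in which the difference was -0.36.

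The male libraries with Cre were at the upper end for this receptor. Male wild type libraries held 19.9, 33.8 and 22.4 CPM and male Cre controls 38.8, 32.4 and 45.4 CPM. Male Egr1cKO controls held 23.4, 19.4 and 27.7 CPM and male Egr1cKO libraries 32.2, 33.9 and 29.0 CPM. The Egr1cKO males lay above their controls without overlap, whereas the Cre controls overlapped wild type. Crhr1 was nevertheless called in neither male pair, with log2 differences of 0.62 ± 0.29 for Cre controls (adjusted p = 0.447) and 0.43 ± 0.29 for Egr1cKO (adjusted p = 0.863). Over both male pairs the difference was 0.52 ± 0.20 (adjusted p = 0.177), and it passed the threshold with scaling by library totals (0.0456), with the mitochondrial share as a covariate (0.0460) and with male libraries alone (0.0333). Over all genes, library totals raised the calls in this comparison from 473 to 968, 81.6% of them higher, and moved the median by 0.22. The mitochondrial share raised the calls to 1528. In females the receptor stood at 24.3 ± 13.3 CPM in wild type, 29.8 ± 4.71 in Cre controls, 26.3 ± 4.14 in Egr1cKO controls and 20.6 ± 6.36 in Egr1cKO (SD, n = 3 each). Neighbours in this order overlap.

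Avpr1b, the pituitary vasopressin receptor (chr1:131599239-131612000), was lower in females. It is a rare transcript, with 0.845 CPM per kb of exon in males and 0.307 in females, against 12.1 and 10.3 for Crhr1 on the same scale. Males held 1.77 to 6.01 CPM (median 3.40, n = 12) and females 0.0878 to 2.50 CPM (median 1.05, n = 12). The ranges overlapped at their edges, between 1.77 and 2.50 CPM. Averaged over genotypes, the level in females was lower by a log2 difference of -1.40 ± 0.38 (95% interval -2.18 to -0.62, adjusted p = 0.0115), and the call held in all 30 alternatives in which the gene could be tested; a filter at a mean of 10 CPM removed it.

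No single genotype passed the threshold for Avpr1b. Wild type males held 3.64, 2.60 and 1.95 CPM and wild type females 2.50, 1.04 and 0.490, a log2 difference of -1.03 ± 0.76 (adjusted p = 0.903) between overlapping groups. Cre control males held 6.01, 5.67 and 3.16 CPM and Cre control females 1.66, 1.92 and 0.0878, the last from 2 counts, a difference of -2.02 ± 0.76 (adjusted p = 0.121) without overlap. Egr1cKO males held 3.99, 3.82 and 3.77 CPM and Egr1cKO females 0.335, 2.24 and 0.748, a difference of -1.81 ± 0.76 (adjusted p = 0.115), again without overlap. Egr1cKO controls, with 1.95, 1.77 and 2.48 CPM in males and 0.535, 2.18 and 1.07 in females, overlapped (-0.73 ± 0.76, adjusted p = 0.764). As for Crhr1, the male libraries with Cre held the higher levels, 3.16 to 6.01 CPM against 1.77 to 3.64 without Cre, a log2 difference of 0.88 ± 0.53 (adjusted p = 0.425). It passed the threshold with male libraries alone (0.0407). Both sexes together gave 0.36 ± 0.38 (adjusted p = 0.640).

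**Figure D2:**
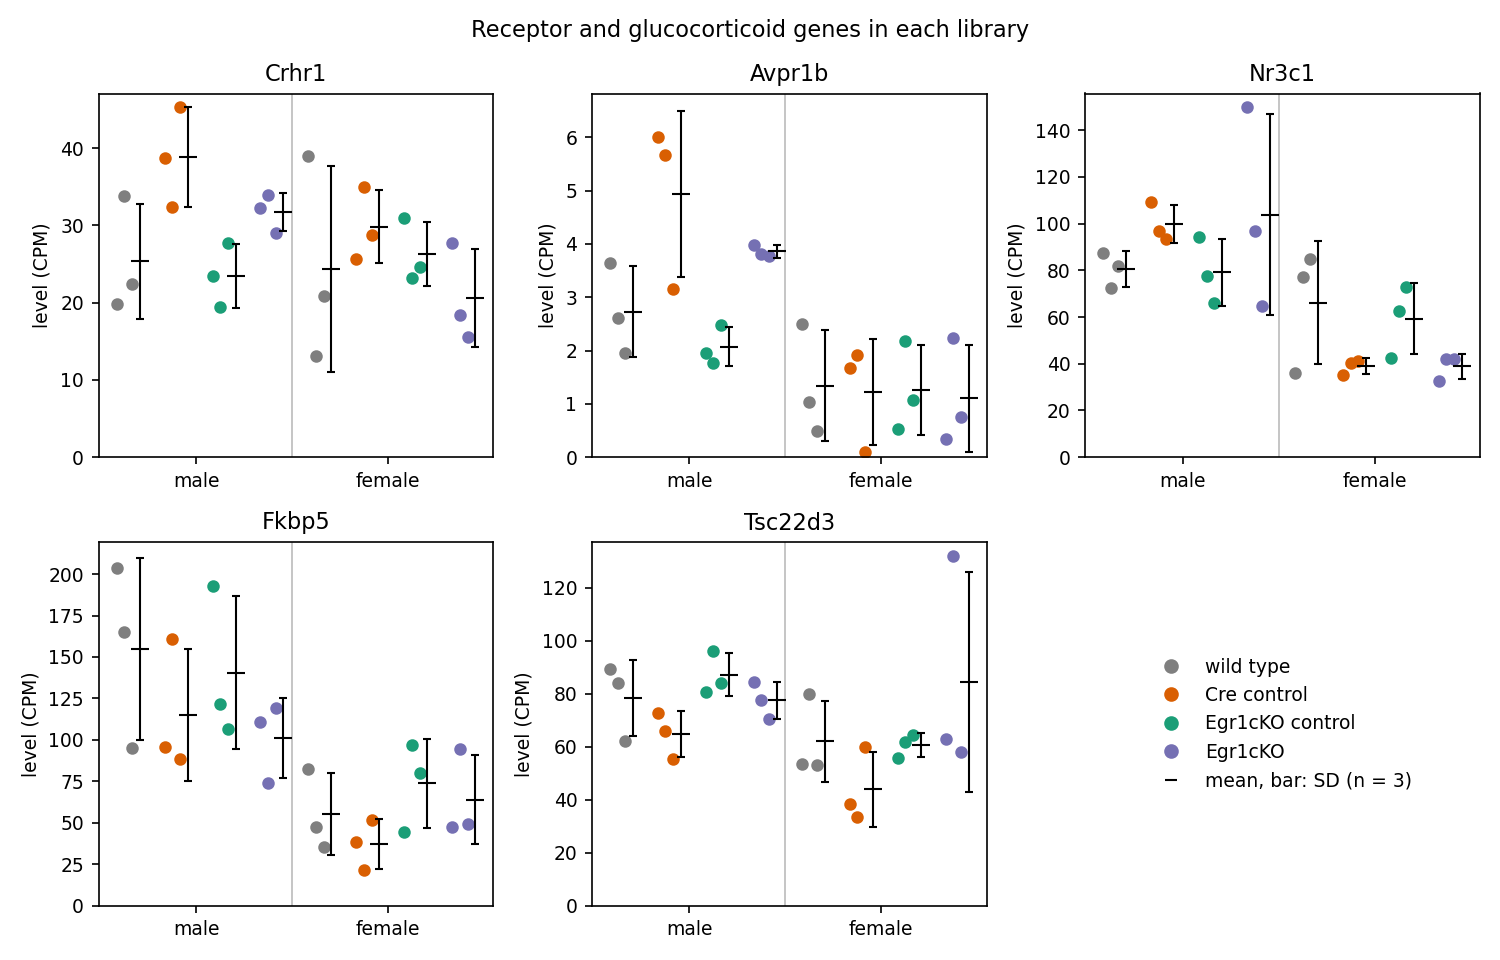
Levels of Crhr1, Avpr1b, Nr3c1, Fkbp5 and Tsc22d3 in CPM in each library, males on the left and females on the right of each panel, with the group mean and SD (n = 3) in black. Nr3c1 in females with Cre sits between 32.5 and 42.2 CPM, below every male library, and Fkbp5 in females reaches 96.7 CPM at most while males reach 204 CPM.

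Nr3c1, the glucocorticoid receptor gene (chromosome 18, 39410545 to 39519421, minus strand), was lower in females, and most clearly so in the libraries with Cre. Male wild type libraries held 87.4, 72.5 and 81.9 CPM and female wild type libraries 36.0, 77.3 and 85.1 CPM. Male Cre controls held 109, 96.8 and 93.5 CPM and female Cre controls 35.2, 40.5 and 41.2 CPM. Wild type groups overlapped, and Cre control groups did not. Egr1cKO controls held 94.3, 77.4 and 65.9 CPM in males and 42.6, 62.6 and 72.8 CPM in females. Egr1cKO libraries held 150, 97.0 and 64.8 CPM in males and 32.5, 42.2 and 41.9 CPM in females. Among these the controls overlapped, and the Egr1cKO groups did not.

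Averaged over genotypes, the female level of Nr3c1 was lower by a log2 difference of -0.87 ± 0.13 (SE; adjusted p = 7.61e-05). The difference was called in Cre controls (-1.36 ± 0.27, adjusted p = 0.00706, 3.61% of genes called) and in Egr1cKO (-1.42 ± 0.27, adjusted p = 0.00250, 13.1% called). It was not called in wild type (-0.28 ± 0.27, adjusted p = 0.947, 0.283% called) or Egr1cKO controls (-0.42 ± 0.27, adjusted p = 0.527, 0.451% called). Without female wild type replicate 1 the wild type difference was 0.01. The Cre control call was lost without female Cre control replicate 1 (adjusted p = 0.0516). These results changed when measures of the libraries entered as covariates. With the mitochondrial share, the averaged difference was -0.51 (adjusted p = 0.119), that in Cre controls -0.95 (0.0999) and that in Egr1cKO -0.70 (0.361). With the genes detected, the Egr1cKO difference was -1.07 (0.214). Both measures themselves differed between females and males with Cre, so these fits cannot tell them apart from sex.

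In females, libraries with Cre held 32.5 to 42.2 CPM of Nr3c1 (median 40.9, n = 6) and those without Cre 36.0 to 85.1 CPM (median 67.7, n = 6), a log2 difference of -0.69 ± 0.19 that was called (adjusted p = 0.0255). All but 1 of the libraries without Cre, female wild type replicate 1 at 36.0 CPM, lay above every library with Cre. In males the difference had the other sign, 0.35 ± 0.19, and was not called (adjusted p = 0.353). The female call was lost without each of 6 of the 12 female libraries in turn (adjusted p up to 0.0813), with the mitochondrial share as a covariate (-0.32, adjusted p = 0.308), with the genes detected (-0.53, 0.139) and with female libraries alone (-0.69, 0.0655). Female wild type replicate 1 was not among these 6. Over the 12 fits the log2 difference ran from -0.84 to -0.57, with edgeR adjusted p from 0.00059 to 0.0813. The part of the higher mitochondrial share of females with Cre in this difference was not tested beyond these fits.

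The difference between the sexes in this Cre response was itself called, at a log2 value of -1.04 ± 0.27 (95% interval -1.59 to -0.49, adjusted p = 0.0454). It remained called in 5 of the 24 fits that left out 1 library, among them the fit without female wild type replicate 1. Over the 24 fits the log2 value ran from -1.19 to -0.85, with adjusted p from 0.000411 to 0.110. The call was lost with the mitochondrial share (-0.63, adjusted p = 0.282) and the genes detected (-0.82, 0.287) as covariates. By pair, Nr3c1 changed with Cre by 0.31 ± 0.27 in males and -0.76 ± 0.27 in females without floxed Egr1 (adjusted p = 0.731 and 0.150), and by 0.39 ± 0.27 in males and -0.61 ± 0.27 in females with floxed Egr1 (0.868 and 0.210). Without female wild type replicate 1 the female Cre control difference was -1.06 (adjusted p = 0.00265). The sex differences of these pairs were -1.07 ± 0.38 (adjusted p = 0.139; 0.00278 without that library) and -1.004 ± 0.38 (adjusted p = 0.534). Female Egr1cKO libraries lay below their controls without overlap.

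**Figure D3:**
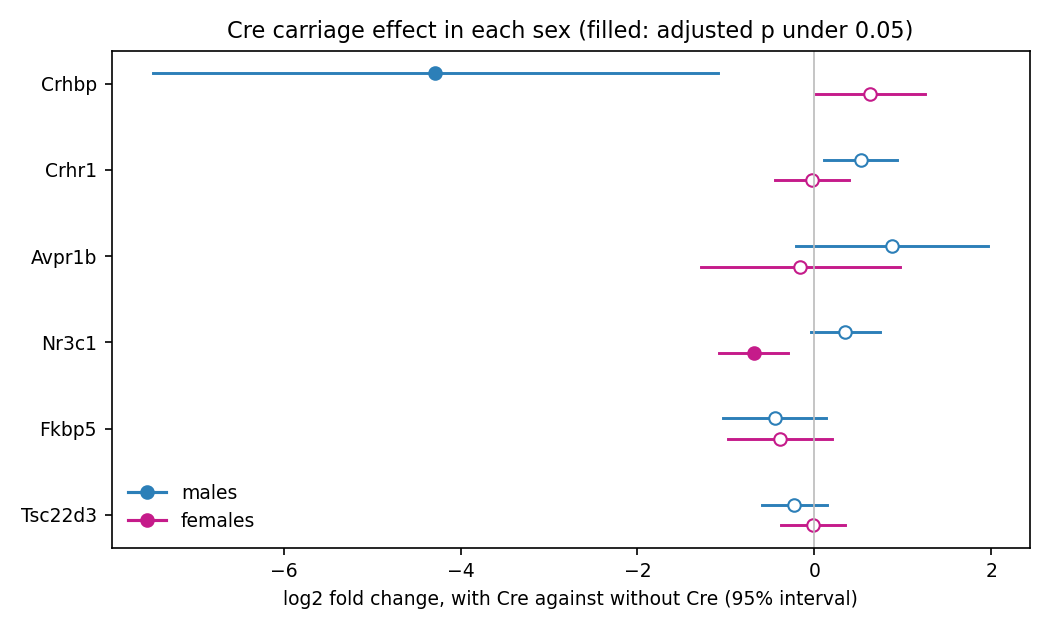
Log2 fold change of the 6 genes with Cre against without Cre, in males and in females, with 95% intervals; filled points have an adjusted p under 0.05. Crhbp is lower with Cre in males (-4.29, a fitted value from 3 against 73 counts) and Nr3c1 lower with Cre in females (-0.69), and the point of each lies on the other side of 0 in the other sex.

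Fkbp5, the co-chaperone induced by the receptor, was lower in females in every genotype by its mean. Male wild type libraries held 204, 165 and 95.1 CPM and female wild type libraries 82.7, 47.3 and 35.6 CPM. Male Cre controls held 95.7, 161 and 88.7 CPM and female Cre controls 38.3, 21.5 and 51.7 CPM. In both genotypes all males lay above all females. Egr1cKO controls held 193, 122 and 107 CPM in males and 44.3, 96.7 and 80.0 CPM in females. Egr1cKO libraries held 111, 73.7 and 119 CPM in males and 47.6, 94.8 and 49.3 CPM in females. The sexes did not overlap among the controls, and overlapped in Egr1cKO through 1 female at 94.8 CPM and 1 male at 73.7 CPM.

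The averaged sex difference of Fkbp5 was a log2 value of -1.18 ± 0.20 (95% interval -1.59 to -0.77, adjusted p = 0.000416), and it was called in all 31 alternatives, with values between -1.65 and -1.11. By genotype it was -1.49 ± 0.40 in wild type (adjusted p = 0.161, 0.283% of genes called) and -1.63 ± 0.40 in Cre controls (0.0321, 3.61% called). It was -0.93 ± 0.40 in Egr1cKO controls (0.302, 0.451% called) and -0.66 ± 0.40 in Egr1cKO (0.269, 13.1% called). The wild type and Cre control values lay within 1 SE of each other, so the call in only 1 of them is no difference between genotypes. Only the Cre control value was called, and that call was lost without male Cre control replicate 2 or 3 or female Cre control replicate 1 or 2 (adjusted p up to 0.144). The wild type value passed with DESeq2 (0.0145), with the mitochondrial share as a covariate (0.0390) and without female wild type replicate 1 (0.0377). The covariate called 378 of all tested genes there, against 62 in the reported fit. Cre carriage gave -0.42 ± 0.20 over both sexes (adjusted p = 0.227), -0.45 ± 0.28 in males (0.447) and -0.39 ± 0.28 in females (0.418), none of them called.

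Tsc22d3, the other glucocorticoid-induced readout (chrX:140539528-140600659), differed less between the sexes. Males held 55.4 to 96.2 CPM (median 79.2, n = 12) and females 33.4 to 132 CPM (median 59.0, n = 12), with overlapping ranges. The averaged sex difference was -0.32 ± 0.13 (95% interval -0.58 to -0.07), and its adjusted p of 0.0643 missed the threshold. Female Egr1cKO replicate 2, with 132 CPM, was the highest of all libraries, against 62.9 and 58.1 CPM in the other 2 of its group; without it the difference was -0.45 (adjusted p = 0.00526). By group the gene stood at 78.5 ± 14.4, 64.7 ± 8.72, 87.0 ± 8.12 and 77.4 ± 7.02 CPM in male wild type, Cre control, Egr1cKO control and Egr1cKO libraries (SD, n = 3 each). The female groups in the same order stood at 62.1 ± 15.2, 43.9 ± 14.1, 60.6 ± 4.40 and 84.4 ± 41.4 CPM. Only the Egr1cKO controls were apart by sex without overlap. Cre carriage gave -0.12 ± 0.13 (adjusted p = 0.643).

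**Figure D4:**
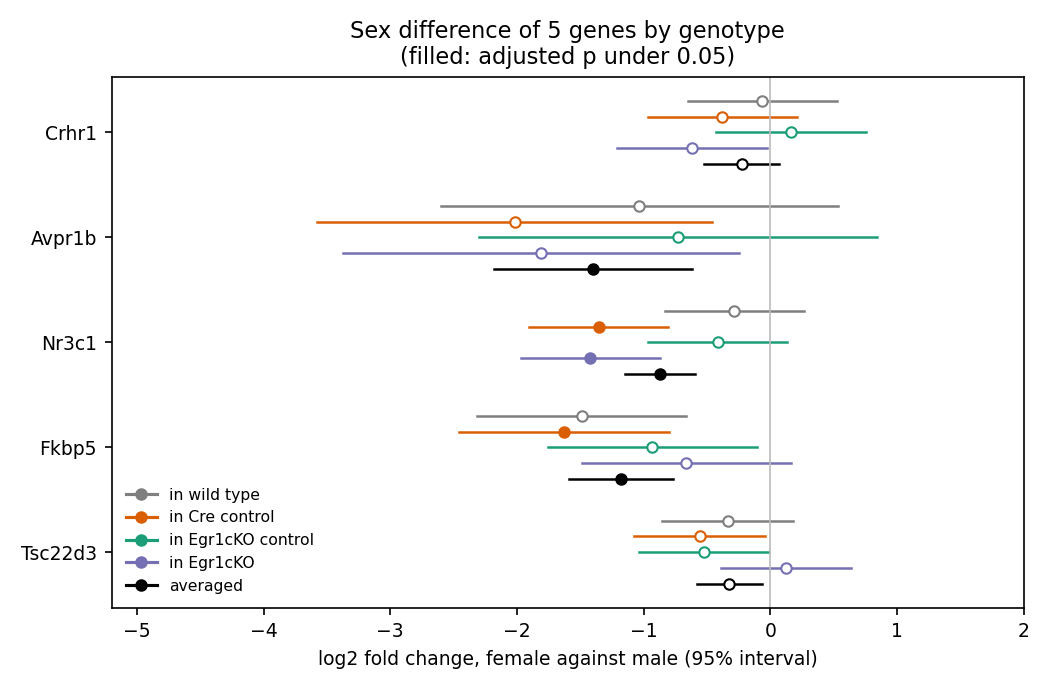
Log2 fold change of female against male for 5 genes within each genotype and averaged over the 4 genotypes, with 95% intervals; filled points have an adjusted p under 0.05. The averaged values of Avpr1b (-1.40), Nr3c1 (-0.87) and Fkbp5 (-1.18) are filled, and those of Crhr1 (-0.23) and Tsc22d3 (-0.32) are not.

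Over the 6 genes, the averaged sex difference thus called 1 higher and 3 lower in females, beside 2190 higher and 2571 lower among all tested genes. Scaling by library totals alone moved the median of all genes by -0.12 in this comparison and by 0.13 for Cre carriage, and the share of calls that were higher from 46.0% to 24.9% and from 40.7% to 72.3%; the directions of the 4 called genes stayed. The count of all called genes, 4761, fell to 596 with the mitochondrial share as a covariate, under which Crhbp, Avpr1b and Fkbp5 were still called and Nr3c1 was not. The median log2 difference over all 6 genes was -0.60, against -0.06 over all tested genes. Cell type markers also differed between the sexes, in a comparison that called 21.7% of all tested genes. Lower in females were 4 of 5 gonadotrope markers and 2 of 2 thyrotrope markers. Of 4 lactotrope and somatotrope markers, Prl, the prolactin gene of lactotropes, was higher, and 2, Pou1f1 and Gh, were lower. Of 6 corticotrope and melanotrope markers, 3 were higher (Pax7, Tbx19 and Pcsk2) and 1 was lower (Pcsk1). Summed gonadotrope markers ranged from 985 to 1987 CPM in females without Cre and 1118 to 3332 with Cre, and from 1683 to 4719 CPM in males without Cre and 3040 to 6896 with Cre. Their part in the results for these 6 genes was not tested.

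None of the 6 genes was called by edgeR in the remaining comparisons as reported. The Egr1cKO effect beyond the Cre effect, that is the difference between the floxed and the unfloxed Cre contrasts, called 0% of all tested genes averaged over the sexes with edgeR, where 1125 genes had an unadjusted p under 0.05, DESeq2 called 3 genes and the fit with the mitochondrial share as a covariate called 320. It called 0% in males (233 genes at an unadjusted p under 0.05, and 0 called by DESeq2). In females it called 0.00456%, which is 1 gene, and this count depended on the setting: 93 genes were called by DESeq2, 164 without the low-count filter, 1846 with the mitochondrial share as a covariate, 1282 without female wild type replicate 1 and 24 without female Egr1cKO replicate 1. The averaged values of the 6 genes lay between -0.41 for Crhr1 and 0.54 for Tsc22d3, the latter with a 95% interval of 0.03 to 1.06 (unadjusted p = 0.0396, adjusted p = 0.931). In females the interval also excluded 0 for Crhbp, at 1.73 (0.50 to 2.95, adjusted p = 0.395), and for Tsc22d3, at 0.98 (0.25 to 1.70, adjusted p = 0.401). Without the low-count filter Crhbp was called there (1.73, adjusted p = 5.38e-05), and without female wild type replicate 1 Crhr1 was called (-1.16, adjusted p = 0.0440, against -0.65 and 0.631 with it). The female Tsc22d3 value was 0.50 without female Egr1cKO replicate 2, its highest library. Floxed Egr1 without Cre, averaged over the sexes, called 0% of genes with edgeR (1573 at an unadjusted p under 0.05; DESeq2 called 2, and 1665 genes were called without female wild type replicate 1), and the 6 genes lay between -0.24 for Avpr1b and 0.14 for Crhbp.

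Among the other genes of the pathway, both posterior lobe hormone genes differed by sex and by Cre. Of 10 further ligands and receptors, 5 passed the filter, and 2 of them, Oxt for oxytocin and Avp for vasopressin, were called higher in females and with Cre, beside 21.7% and 6.89% of all tested genes called. Oxt stood at 22.9 ± 9.58 CPM in males without Cre, 41.4 ± 11.1 in males with Cre, 54.7 ± 21.5 in females without Cre and 130 ± 28.2 in females with Cre (SD, n = 6 each). Its log2 difference was 1.45 ± 0.16 by sex (adjusted p = 2.50e-06) and 1.05 ± 0.16 by Cre (0.000235). Avp differed by 1.30 ± 0.28 by sex (0.00296) and 1.25 ± 0.28 by Cre (0.00816). Posterior lobe markers moved the same way, with 3 of 4 higher in females and 2 of 4 higher with Cre (21.7% and 6.89% of all tested genes called), and summed to 46.4 to 119 CPM in males without Cre, 66.2 to 144 in males with Cre, 99.96 to 125 in females without Cre and 138 to 227 in females with Cre. The part of posterior lobe tissue in the Oxt and Avp values was not tested.

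Of 8 genes that carry the receptor signal, 1 was higher and 2 were lower in females, beside 21.7% of all tested genes called. These were Crtc2, a coactivator of CREB (0.40 ± 0.12, adjusted p = 0.0176), Prkacb, a catalytic subunit of protein kinase A (-0.45 ± 0.11, 0.00568), and Gna11, a Gq-family G protein subunit (-0.26 ± 0.08, 0.0198). With Cre, where 6.89% of all tested genes were called, 1 of the 8 was higher, the regulatory subunit Prkar1a (0.39 ± 0.10, adjusted p = 0.0213). Of 14 genes of the receptor machinery, 13 were tested and 3 were lower in females, a share near that of all tested genes called by sex, 21.7%. Nr3c2, the mineralocorticoid receptor, had the largest difference (-1.15 ± 0.17, adjusted p = 4.66e-05), from 40.1 ± 6.73 CPM in males without Cre to 27.4 ± 13.3 in females without Cre and from 38.3 ± 10.3 to 11.6 ± 2.59 with Cre. Ncoa1, a receptor coactivator (-0.51 ± 0.12, 0.00433), and Hsd11b1, which regenerates active glucocorticoid (-0.45 ± 0.15, 0.0382), were the others. With Cre, Fkbp4, a co-chaperone of the receptor like Fkbp5, was higher (0.34 ± 0.10, adjusted p = 0.0330) and Nr3c2 lower (-0.64 ± 0.17, 0.0201).

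All 16 further glucocorticoid-induced genes were tested, and 3 were lower and 0 higher in females, a share near the 21.7% of all tested genes called. These were the transcription factors Cebpd (-0.69 ± 0.13, adjusted p = 0.000548), Klf9 (-0.60 ± 0.12, 0.000920) and Zbtb16 (-1.49 ± 0.42, 0.0199). The median over the 16 genes was -0.20, against -0.06 over all tested genes. With Cre, 1 of the 16 was lower, beside 6.89% of all tested genes called; this was Cebpd (-0.57 ± 0.13, adjusted p = 0.00622), and the median was 0.02. Pomc, the precursor gene that glucocorticoids repress, was higher with Cre (1.44 ± 0.28, adjusted p = 0.00220) and not called by sex (0.73 ± 0.28, 0.0630). It held 7246 to 48091 CPM in males without Cre, 29993 to 111100 in males with Cre, 11546 to 40081 in females without Cre and 50633 to 224380 in females with Cre. The female ranges with and without Cre did not overlap, and the male ranges did.

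**Figure D5:**
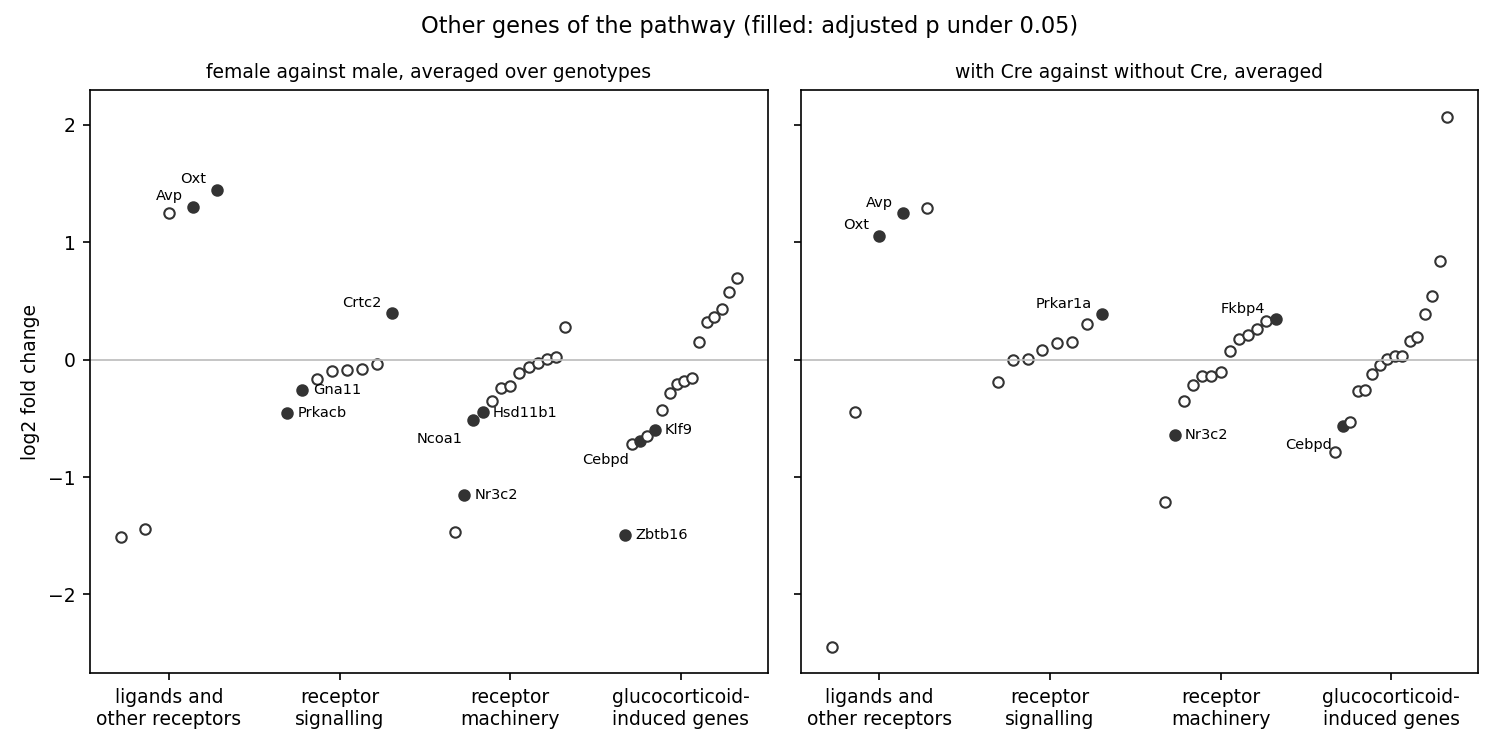
Log2 fold change of the tested pathway genes in 4 lists, female against male on the left and with Cre against without Cre on the right; filled and named points have an adjusted p under 0.05. In the glucocorticoid-induced list the named genes lie below 0 in both panels, while 6 of all 16 lie above 0 on the left and 9 on the right. Oxt and Avp lie above 0 in both.

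The genes most like each of the 6 over the 24 libraries were found among 13987 genes by Pearson's r of log2 CPM, as a description of libraries that share their sex and Cre groups. For Crhbp they were Xist (r = 0.95), the RNA that silences an X chromosome in females, Rxfp1 (0.94), the relaxin receptor, and Ptpn5 (0.93). Those for Nr3c1 were Smc6 (0.94), Man2a1 (0.94) and Lamp2 (0.93), and within the 12 male libraries Smc6 was again among the closest 3 (0.92). Crhr1 was most like Slc2a4 (0.80), Nhsl1 (0.71) and Cd79a (0.71), and Avpr1b most like Gata2 (0.77), a transcription factor of gonadotropes and thyrotropes, Tmem206 (0.74) and Serpina3c (0.69). Fkbp5 was most like Dnaic2 (0.86), Frmpd1 (0.85) and Agtr1a (0.83), and Tsc22d3 most like Tsku (0.76), Apbb2 (0.73) and Cyp2f2 (0.72). Within females the closest to Crhbp were Gclm (0.90), Etv1 (0.89) and Pax7 (0.87), the last a melanotrope transcription factor.

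After the group means were removed, the 6 genes and Pomc gave 21 pairs over 24 libraries, and none passed the threshold after adjustment. The pair with the smallest p was that of both glucocorticoid-induced readouts, Fkbp5 and Tsc22d3, with Pearson's r = 0.54 (permutation p = 0.0368, adjusted 0.493) and Spearman's rho = 0.54 (permutation p = 0.0322, adjusted 0.500). Without the 2 libraries farthest from the median of Fkbp5, r was 0.58. In the 12 female libraries r was 0.61 (permutation p = 0.0806, adjusted 0.846).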

How the data were processed

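Pituitary RNA from 24 mouse libraries was sequenced without strand information from 1.5 ug of total RNA, per the labels' protocols. The authors deposited whole-number read counts per Ensembl gene without normalization; per the submitters' processing notes the tools were Trim Galore 3.8.2, FastQC and STAR 2.7.9 with GRCm38. The counting tool is not given in the sources used here. Of 35191 identifiers, 35077 matched GENCODE M21, whose GRCm38 coordinates are printed. Samples were grouped by their genotype and sex labels. Nothing beyond title numbers says that libraries are separate animals, so p-values measure the spread between these samples, which may be technical.

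Counts were fitted in edgeR 4.0.16 (R 4.3.3): filterByExpr (21927 genes kept), TMM scaling, 1 mean per group, 16 residual degrees of freedom, robust quasi-likelihood tests, Benjamini-Hochberg adjustment over all tested genes and a threshold of 0.05. Levels are CPM values computed on TMM-scaled totals. DESeq2 1.42.0, other scalings and filters, covariates and leaving out each library were alternatives. The edgeR step was run on simulated data with the same spread for every gene, below the common spread of these data. That run does not cover genes with a larger spread, such as Avpr1b. Correlations used 100000 permutations, and Crhbp ratios an exact conditional binomial interval at 95%. The genes and lists were chosen with earlier results of these data known. Named genes are the 6, up to 4 called genes per list and comparison (given for the averaged sex and Cre comparisons), Pomc, and the 3 most like genes with a mean of at least 1 CPM, without predicted genes. Cre carriage within each sex, the female correlations and the Crhbp count ratios were added after seeing the data.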

Additional observations from a re-analysis of the deposited data

Results flagged for a closer look

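The change with Cre carriage differed between males and females, by a test of that difference, for Crhbp and Nr3c1. The log2 value, female minus male, was 4.92 for Crhbp (edgeR adjusted p = 0.0171), where males with Cre held 3 counts against 73 without. It was -1.04 for Nr3c1 (adjusted p = 0.0454), where the level with Cre was 38.9 ± 4.07 CPM against 62.7 ± 19.7 without in females (SD, n = 6 each) and 102 ± 27.7 against 79.9 ± 10.2 in males. Both calls were lost with the mitochondrial share or the genes detected as a covariate, at 5.15 and 5.05 for Crhbp and -0.63 and -0.82 for Nr3c1.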

How the results depend on the processing

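Over 2229 values of the 6 genes under all alternatives, 132 changed sign, 0 of them with a call in either fit; of those given singly, Tsc22d3 with Cre carriage turned to 0.0058 with library totals only, and Nr3c1 in wild type ranged from -0.51 to 0.013 without 1 library. The averaged sex difference called 4 of the 6 genes in the reported fit and 4 or 5 in each fit without 1 library. Without the low-count filter, 2 of the 6 were called for Cre carriage (1 reported), the sex difference in wild type (1) and in Egr1cKO controls (1), sex by Cre (0) and Cre carriage in females (1), and 1 for the Egr1cKO effect in males and in females, the Cre effect in males and in females, sex by Egr1cKO and the female Egr1cKO effect beyond Cre (0 each); the cause was not tested. Without that filter, calls rose over all genes, from 9 to 339 for the Egr1cKO effect in males and from 484 to 1142 in females. For the Cre effect they rose from 51 to 704 in males and from 265 to 1149 in females. For sex by Cre they rose from 28 to 1427, and for sex by Egr1cKO from 5 to 167. The rise was from 1510 to 2196 for Cre carriage and from 62 to 370 for the wild type sex difference. DESeq2 called 1 for the Egr1cKO effect in males, in females and for sex by Egr1cKO (0 each) and 2 for the sex difference in wild type (1). With the mitochondrial share as a covariate, 0 were called for Cre carriage (1), sex by Cre carriage (2) and Cre carriage in females (1), 1 for the sex difference in Egr1cKO (2) and the Egr1cKO effect in females (0), and 2 for the sex difference in wild type and Cre carriage in males (1 each). The mitochondrial share moved the calls over all genes from 2863 to 215 for the sex difference in Egr1cKO. The move was from 484 to 3081 for the Egr1cKO effect in females and from 62 to 378 for the wild type sex difference. For Cre carriage in males it was from 473 to 1528. With the genes detected, 0 were called for Cre carriage, sex by Cre carriage and Cre carriage in females, and 1 for the sex difference in Egr1cKO. A mean of at least 10 CPM gave 1 for the Egr1cKO effect in females, library totals gave 2 for Cre carriage in males, and the groups compared alone gave 3 for Cre carriage in males, 0 in females and 2 for the sex difference in Egr1cKO controls.

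Without 1 library, the count ran from 0 to 1 for Cre carriage, for Cre carriage in males and in females, for sex by Egr1cKO, for sex by Cre and for the female Egr1cKO effect beyond Cre, from 0 to 2 for sex by Cre carriage and for the Cre effect in females, from 1 to 2 for the sex difference in wild type and from 1 to 3 in Cre controls; the upper ends for the Cre effect in females, the wild type sex difference, sex by Cre and the female effect beyond Cre came without female wild type replicate 1. Over all genes, the averaged sex difference called 4761 genes in the reported fit, 596 with the mitochondrial share and 824 with the genes detected as a covariate; Cre carriage called 1510, 4239 and 2331, and sex by Cre carriage 451, 61 and 21, with 1364 by DESeq2, 2081 without the filter, 4556 without female wild type replicate 1 and 68 to 940 without any other 1 library, the lowest without male Egr1cKO replicate 1. The pair correlations passed the threshold in 0 pairs under scaling by totals and in females alone. Crhbp in males is limited by depth, at 76 counts over 12 libraries. No paired analysis was possible because the titles give each library a number of its own, shared by no other group.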
